A study of Mus musculus with 10 samples.

Results

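The genes described here are 40 mouse genes of the cell division programme, 19 that act in DNA replication during S phase and 21 that act in G2 and mitosis. They were chosen by name from a list, as the rows of the expression table that carry one of these symbols and reach 10 normalized reads on average across the 10 libraries. All 40 were found and all 40 passed that minimum, out of 12455 genes that passed it and 57010 identifiers in the table.

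Cells copy their DNA in S phase and separate the copies in mitosis. Before S phase the Mcm proteins are loaded on DNA as an inactive helicase, which cyclin-dependent kinases then switch on, and the E2F factors drive many of the genes needed. Mitotic genes are turned on later, largely through the MuvB complex with B-Myb and Foxm1, and many of their products are destroyed as cells leave mitosis. Macrophages grown from marrow with macrophage colony-stimulating factor (M-CSF) pass through a phase of division as precursors and go on dividing to some extent in culture.

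RNA sequencing was carried out on primary bone marrow-derived macrophages of wild-type mice (WT) and of WASp knockout mice (WKO). WASp, encoded by Was, activates the Arp2/3 complex and so starts branched actin filaments in blood cells. Per the labels, marrow cells of every group were grown for 7 days in RPMI medium with 20 ng/mL recombinant mouse M-CSF, and libraries of mRNA were made from 5 ng of RNA. There were 2 libraries of WT unconfined cells, 2 of WKO unconfined cells, 3 of WT cells kept for 1 h under micropillars at a height of 3 µm, and 3 of WKO cells confined in the same way. The labels give neither the handling of unconfined cells (with or without the device) nor the knockout allele, age or sex of the mice. They do not say whether the replicates of a group came from separate animals or cultures, so the p-values measure only the spread between these libraries, which may be technical.

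Libraries held between 13295701 and 19329908 reads. Was had normalized read counts of 1308 and 1639 in WT unconfined, 1618, 1570 and 1649 in WT confined, 154 and 141 in WKO unconfined and 98.9, 96.9 and 125 in WKO confined libraries, which separates the 5 libraries of each genotype as labelled. All 10 macrophage markers, among them Csf1r and Adgre1, were read in every library, with a summed normalized read count from 196516 to 335473. WKO confined replicate 5 stood apart: 15 stromal markers summed to 11436 in it and to 3775 or less in the other 9 libraries. It also held the lowest value of the 10 libraries for 12 of the 19 S phase genes and for 7 of the 21 mitotic genes, so fold changes printed for the 40 genes that moved by over 1.5 times without it are given both ways.

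Promoter sequences are shown for 4 of the genes because the S phase and mitotic groups differed in the motifs their promoters hold. RefSeq windows of 300 bases around the start site (GRCm38.p6) were found for 33 of the 40 genes and searched on both strands for TTTGAA (the CHR element, bound by MuvB), CCAAT (the CCAAT box, bound by NF-Y) and TTNGCGC (an E2F-like site). The first window listed for a gene was used. Matches can overlap: copies of the E2F-like site on opposite strands can share letters with each other and with a CCAAT box. The CHR element was present in 12 of 17 mitotic promoters (70.6%), in 2 of 16 S phase promoters (12.5%) and in 18.1% of all 27025 promoters. The CCAAT box was present in 15 of 17 mitotic promoters (88.2%), in 11 of 16 S phase promoters (68.8%) and in 37.9% of all. The E2F-like site was present in 3 of 17 mitotic promoters (17.6%), in 6 of 16 S phase promoters (37.5%) and in 6.47% of all. These are matches of letters, with no measurement of binding.

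The sequences below run 5′ to 3′ on the gene's strand, upstream of the first exon, with every copy of the 3 motifs in capitals. Cdc20 (chr4:118437353-118437593, minus strand) and Mki67 (chr7:135716380-135716629, minus strand) are mitotic genes with a CHR element, Bub1b (chr2:118597961-118598210, plus strand) is a mitotic gene with only a CCAAT box in this stretch, and Mcm6 (chr1:128359706-128359955, minus strand) is an S phase gene with E2F-like sites.
Cdc20: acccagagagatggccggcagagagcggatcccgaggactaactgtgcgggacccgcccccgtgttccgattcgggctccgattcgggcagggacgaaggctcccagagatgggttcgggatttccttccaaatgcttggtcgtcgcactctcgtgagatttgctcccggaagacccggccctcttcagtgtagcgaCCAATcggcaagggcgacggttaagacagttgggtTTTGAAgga
Mki67: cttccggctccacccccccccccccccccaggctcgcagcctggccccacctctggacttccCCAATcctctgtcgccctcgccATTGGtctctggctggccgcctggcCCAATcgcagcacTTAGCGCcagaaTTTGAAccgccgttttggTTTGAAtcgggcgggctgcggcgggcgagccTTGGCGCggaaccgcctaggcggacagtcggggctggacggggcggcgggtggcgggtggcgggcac
Bub1b: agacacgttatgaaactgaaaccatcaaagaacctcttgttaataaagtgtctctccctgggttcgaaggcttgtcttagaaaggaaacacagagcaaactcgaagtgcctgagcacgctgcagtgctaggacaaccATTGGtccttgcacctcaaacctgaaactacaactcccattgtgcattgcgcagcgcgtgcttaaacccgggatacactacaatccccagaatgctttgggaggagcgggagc
Mcm6: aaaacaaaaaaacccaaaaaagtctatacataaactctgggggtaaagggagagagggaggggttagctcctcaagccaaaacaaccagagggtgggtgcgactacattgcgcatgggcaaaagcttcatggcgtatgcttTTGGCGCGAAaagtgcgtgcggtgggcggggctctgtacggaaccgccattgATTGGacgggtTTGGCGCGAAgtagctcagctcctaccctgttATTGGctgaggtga
In Cdc20 the CHR element starts 18 bases and the upstream CCAAT box 53 bases before the start site. Mki67 has 2 CHR elements, at 116 and 98 bases, 3 CCAAT boxes further upstream, and 2 E2F-like sites, at 128 and 67 bases. Bub1b is counted above among the promoters with a CHR element, which lies 41 bases after its start site, outside the stretch shown. In Mcm6 E2F-like copies on the 2 strands overlap in pairs, at 109 and 106 bases and at 46 and 43 bases before the start site.

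All 40 genes were expressed in every group. Per kilobase of exon, Pcna, the sliding clamp of the DNA polymerases, stood highest at a mean normalized read count of 4040, followed by the helicase subunit Mcm6 at 548 and the ribonucleotide reductase subunit Rrm2 at 493. The lowest were the kinetochore protein Cenpf at 33.8 and thymidylate synthase, Tyms, at 38.6. Uncertain counts belong to Gins2, whose exons are overlapped by Gse1 over 67.3% of their length, and to Ube2c, overlapped by Tnnc2 over 22.8%. Mcm7, Cdc6, Pcna, Uhrf1, Ccne2 and Ccnb1 share at least 20% of their longest transcript with another gene at 95% identity or more. For Pcna this is the pseudogene Pcna-ps2, with a mean normalized read count of 46.0 against 9696 for Pcna itself.

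**Figure D1:**
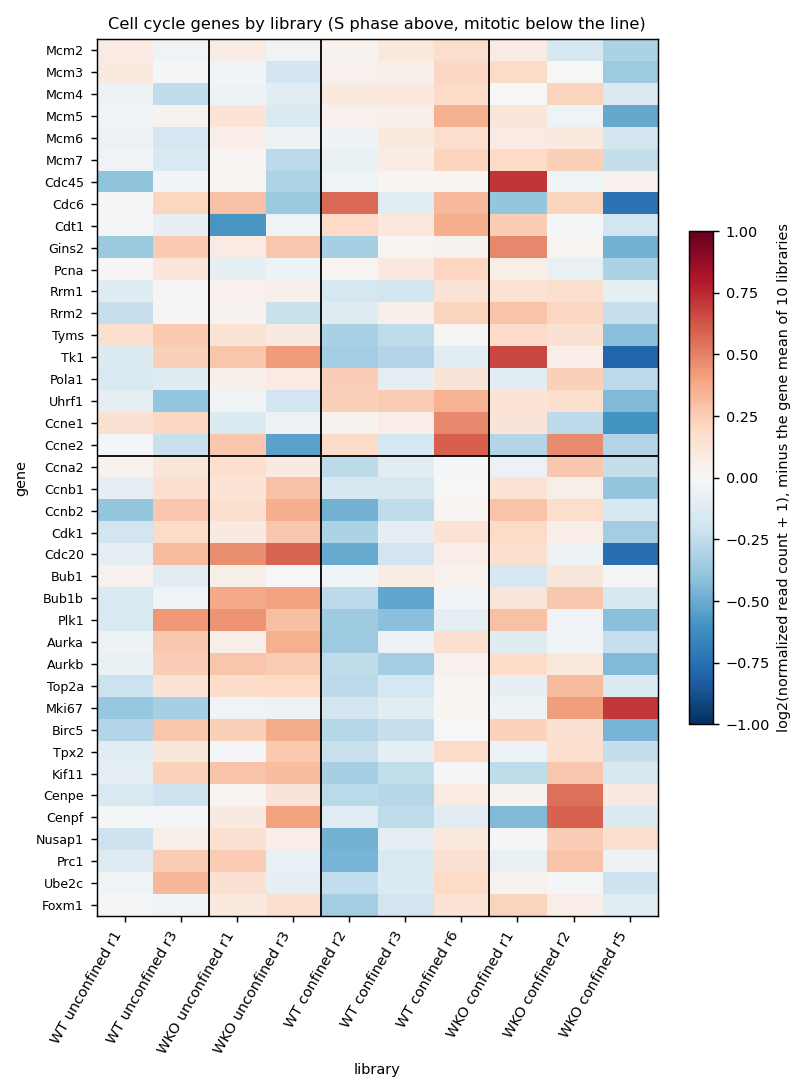
Each row is a gene and each column a library (r, replicate number), and the colour gives log2(normalized read count + 1) minus the mean of that gene over the 10 libraries. The column of WKO confined replicate 5 is blue for most S phase genes and red for Mki67, and the column of WT confined replicate 2 is blue for most mitotic genes.

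None of the 40 genes passed the threshold in any comparison. The test was limma on log2(normalized read count + 1), with p-values adjusted by Benjamini-Hochberg over the 12455 genes and a threshold of 0.05. Between WKO and WT in unconfined cells 0.145% of all genes passed, and 1 of the 40 had an unadjusted p under 0.05 (9.60% of all genes). Between the genotypes in confined cells 2.59% of all genes passed, and 3 of the 40 had an unadjusted p under 0.05 (16.8% of all). For confined against unconfined WT cells 1.16% of all passed, and 1 of the 40 had an unadjusted p under 0.05 (12.2% of all). For confined against unconfined WKO cells 1.72% passed, and 2 of the 40 had an unadjusted p under 0.05 (14.1% of all). For the interaction, which is the WKO confinement effect less the WT one, 0% of all genes passed, and 0 of the 40 had an unadjusted p under 0.05 (2.07% of all). edgeR's quasi-likelihood test and DESeq2 on the recovered reads called 0 of the 40 in each of the 5 comparisons too.

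The 95% intervals were computed gene by gene without adjustment. Like the p-values, they reflect only the spread between these libraries, which may be technical, so they do not show that a gene was unchanged. The 95% interval of the log2 fold change (limma) lay within 1 unit of 0 on each side, a 2-fold change, for 38 of the 40 genes between unconfined genotypes, 39 between confined genotypes, 40 for confinement in WT and 38 for confinement in WKO. It did so for 36 of 40 in the interaction. The genes beyond that limit were Tk1 and Cdc20 in the first comparison, Cdc6 in the second, and Cdc20 and Tk1 in the fourth. In bulk RNA, fewer dividing cells and less of a transcript per dividing cell cannot be told apart.

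**Figure D2:**
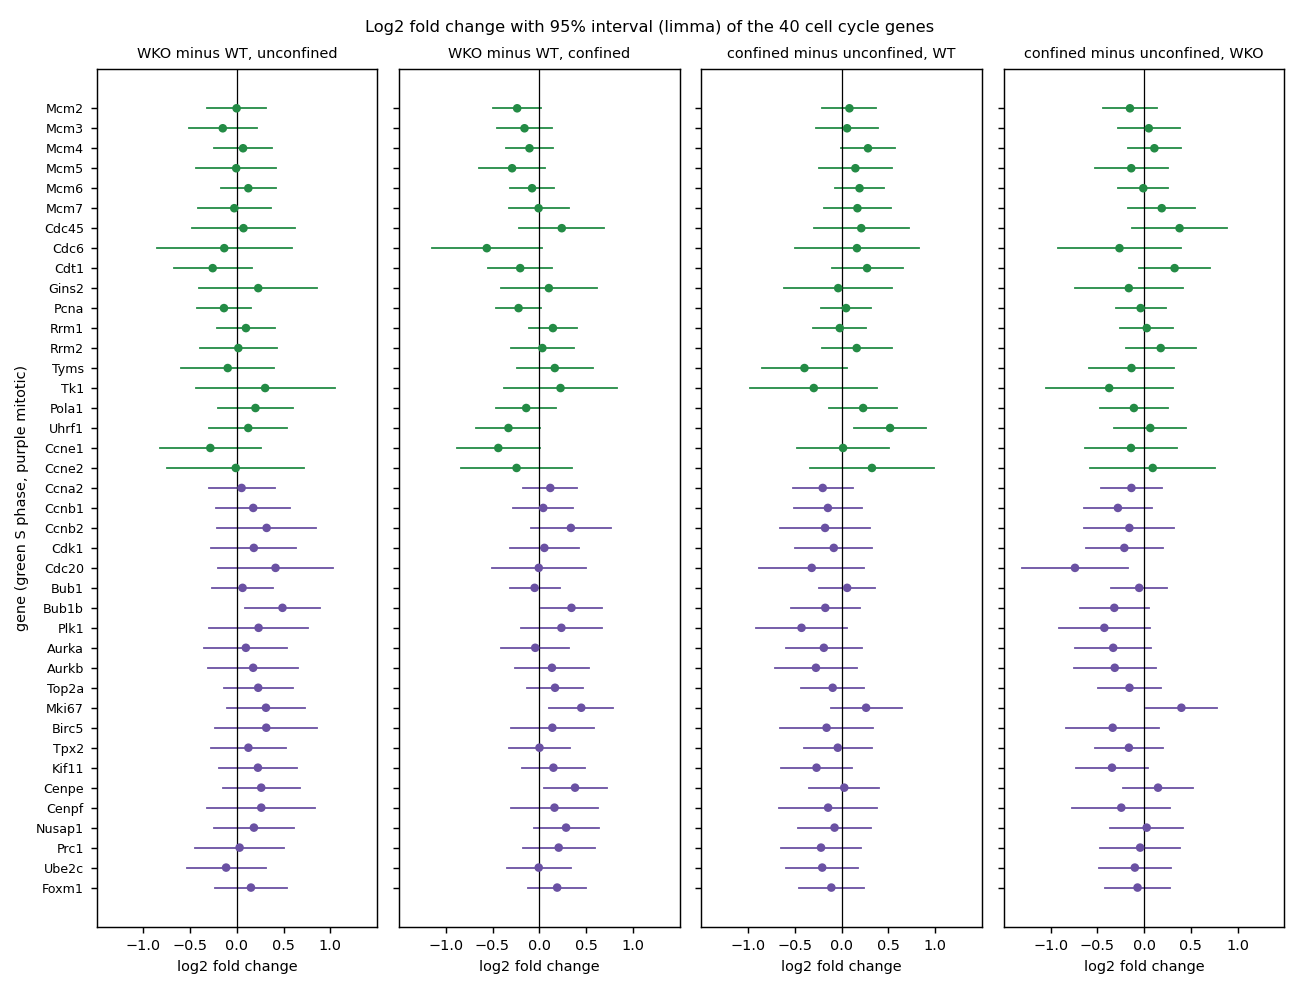
Points give the log2 fold change of each gene and lines its 95% interval from limma, in 4 comparisons, with S phase genes in green and mitotic genes in purple. Most intervals cross 0, and in the first 2 panels most purple points lie to the right of 0 while in the last 2 most lie to the left.

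The mitotic genes lay mostly on one side of 0 in each comparison, within differences that passed for none of them. Between unconfined genotypes 20 of 21 had a log2 fold change above 0, with a median of 0.18, against 50.3% and a median of 0.0022 for all genes. Between confined genotypes 17 of 21 were above 0 (median 0.15, all genes 50.5% and 0.0036). After confinement 18 of 21 were below 0 in WT (median -0.16) and 18 of 21 in WKO (median -0.16), where 49.0% and 48.0% of all genes were above 0. The comparisons share libraries, so their values are given side by side only. Within a comparison the 21 genes were read in the same 2 or 3 libraries per group. They are therefore not separate observations of a genotype or condition.

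Groups without overlap were counted as well. Between unconfined genotypes, 10 mitotic genes had both WKO values above both WT values and 0 below, and the S phase genes had 4 above and 4 below, where all genes had 22.2% above and 22.7% below. The nearest WT and WKO values almost met for Aurkb (502.9 and 505.9) and Nusap1 (524.9 and 527.5). They did so too for the S phase genes Mcm6 (2444.3 and 2460.1) and Mcm3 (1424.2 and 1412.8). Between confined genotypes no mitotic gene separated and 1 S phase gene, Uhrf1, was below, where all genes had 10.7% above and 10.4% below. On confinement in WT 6 S phase genes were above (Mcm4, Mcm5, Mcm6, Cdt1, Pola1 and Uhrf1) and 1 below (Tyms), and 1 mitotic gene was above and 2 below, where all genes had 18.3% above and 17.7% below. The nearest confined and unconfined WT values almost met for Mcm5 (1553.4 and 1552.8) and Mcm6 (2459.7 and 2444.3). On confinement in WKO no S phase gene separated and 8 mitotic genes were below, where all genes had 14.5% above and 13.8% below.

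Single libraries moved these medians. Between unconfined genotypes the median was 0.049, with 15 of 21 above 0, without WT unconfined replicate 1, and 0.32 without WT unconfined replicate 3. Between confined genotypes it was 0.029, with 12 of 21 above 0, without WKO confined replicate 2, 0.083 without WT confined replicate 2, 0.25 without WT confined replicate 6 and 0.26, with 20 of 21 above 0, without WKO confined replicate 5. For confinement in WT it was -0.023, with 13 of 21 below 0, without WT unconfined replicate 3, -0.065 without WT confined replicate 2, -0.27 without WT unconfined replicate 1 and -0.25 without WT confined replicate 6. For confinement in WKO it was -0.063, with 16 of 21 below 0, without WKO confined replicate 5, -0.30 without WKO unconfined replicate 1 and -0.27 without WKO confined replicate 2. The direction of the median held in these fits, and its size did not.

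The S phase genes were balanced between the unconfined genotypes, with 9 of 19 above 0 and a median of -0.0023 (12 of 19 and 0.014 with upper-quartile scaling). Size and sign of that median rested on single libraries: it was 0.14 without WKO unconfined replicate 3 and -0.095 without WKO unconfined replicate 1. Between confined genotypes 6 of 19 were above 0 and the median was -0.14, which became -0.020, with 8 of 19 above 0, without WKO confined replicate 5 and -0.074 without WT confined replicate 6. After confinement 15 of 19 were above 0 in WT (median 0.16, and 0.075 without WT confined replicate 6) and 9 of 19 in WKO (median -0.0091, and 0.082 with 16 of 19 above 0 without WKO confined replicate 5). With 1 library left out in turn, the WKO median ran from -0.073 to 0.082. The interaction median was -0.13 for S phase genes, and from -0.19 to 0.024 with 1 library left out, the latter without WKO confined replicate 5. For mitotic genes it was -0.060, and from -0.20 without WT unconfined replicate 3 to 0.094 without WT unconfined replicate 1, so the sign of both medians changed with the library left out.

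The mean log2 level of the mitotic genes minus that of the S phase genes describes this balance in each library. It was -0.32 and -0.12 in WT unconfined, -0.11 and 0.05 in WKO unconfined, -0.56, -0.45 and -0.42 in WT confined and -0.38, -0.16 and -0.088 in WKO confined libraries. The 3 WT confined libraries had the lowest values of all 10, the WKO confined libraries overlapped both unconfined groups, and both WKO unconfined values lay just above the WT unconfined ones. A level difference between lists also depends on gene length and is used here only to set libraries side by side.

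**Figure D3:**
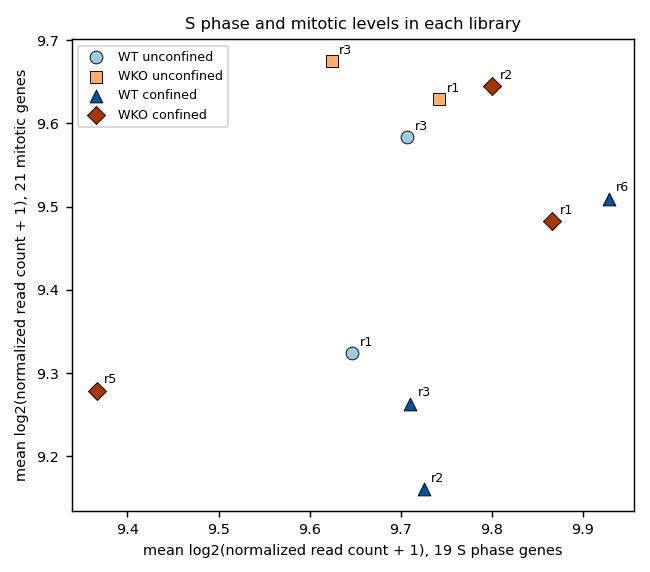
Each point is a library (r, replicate number), with the mean log2(normalized read count + 1) of the 19 S phase genes on the x axis and of the 21 mitotic genes on the y axis. WT confined replicates 2 and 3 lie lowest on the mitotic axis, both WKO unconfined libraries lie high on it, and WKO confined replicate 5 lies far to the left.

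Markers of other marrow cells moved with the genotype. The 14 neutrophil and progenitor markers, which include Elane, Mpo and Kit, summed to between 8170 and 11674 in WT unconfined and between 25842 and 31490 in WKO unconfined libraries. In confined libraries the sum ran from 3095 to 9161 in WT. It was 22812, 29475 and 8126 in WKO replicates 1, 2 and 5, so replicate 5 lay within the WT confined range. The 15 stromal markers summed to between 1052 and 2062 in WT unconfined, 2670 and 3144 in WKO unconfined, 258 and 874 in WT confined and 1000 and 11436 in WKO confined libraries, and 8 of the 13 that were tested rose in WKO confined cells (limma). The 9 B cell markers summed to at most 892 in WT and to between 1613 and 5202 in WKO libraries, with the lowest WKO sum in confined replicate 5. The sum of the 7 dendritic cell markers had the opposite order in unconfined cells, at 5415 to 6327 in WT and 2724 to 3097 in WKO. It overlapped in confined cells (3455 to 5820 in WT and 2302 to 3487 in WKO). Single dendritic cell markers did not share that order. Between unconfined genotypes 2 of the 3 tested had a log2 fold change above 0 and 1 below. The 9 erythroid markers summed to between 8592, in WKO confined replicate 5, and 16903. T and NK cell markers stayed at or below 18.2 in sum, with Trac and Ncr1 at 0 in every library, as was Xcr1 of the dendritic list. Of the macrophage markers themselves, 6 of 10 rose in WKO confined cells, as did 2 of 5 tested B cell and 1 of 3 tested dendritic cell markers. In unconfined WKO cells Mertk and Ighm rose, and after confinement in WT 1 B cell marker fell. No neutrophil, progenitor or erythroid marker passed in any comparison. The part of these cells in the mitotic and S phase values was not tested.

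Among the helicase genes, the 6 Mcm subunits varied over the libraries from 1.29-fold (Mcm6) to 1.82-fold (Mcm5), lowest to highest. Mcm6 ran from 2244 to 2888 over the 10 libraries, Mcm2 from 888 to 1248, Mcm3 from 1119 to 1665, Mcm5 from 1062 to 1931 and Mcm7 from 883 to 1252. The largest of their fold changes over the genotype and confinement comparisons was that of Mcm5 between confined genotypes (-0.29, 95% interval -0.64 to 0.06, and -0.11 without WKO confined replicate 5). Mcm4 had 1086 and 945 in WT unconfined, 1085 and 1038 in WKO unconfined, 1203, 1208 and 1284 in WT confined and 1123, 1312 and 1019 in WKO confined libraries. In WT all 3 confined values were above both unconfined ones, with a log2 fold change of 0.28 (95% interval -0.0033 to 0.57, limma adjusted p 0.418). Mcm2 had 1171 and 1079 in WT unconfined, 1165 and 1081 in WKO unconfined, 1135, 1191 and 1248 in WT confined and 1170, 993 and 888 in WKO confined libraries. Its groups overlapped throughout, and its interaction was -0.23 (95% interval -0.64 to 0.17), or -0.14 without WKO confined replicate 5.

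Cdt1 and Cdc6 load the Mcm helicase on origins. Cdt1 had 1107 and 1062 in WT unconfined, 749 and 1097 in WKO unconfined, 1286, 1208 and 1444 in WT confined and 1336, 1114 and 986 in WKO confined libraries. WKO unconfined replicate 1 was the lowest of the 10 for it, and the WKO groups overlapped (confinement in WKO 0.33, 95% interval -0.05 to 0.71, limma adjusted p 0.423). Cdc6 had 214 and 251 in WT unconfined, 265 and 167 in WKO unconfined, 321, 199 and 271 in WT confined and 165, 253 and 129 in WKO confined libraries. Its confined genotypes overlapped (log2 fold change -0.56, 95% interval -1.15 to 0.03, limma adjusted p 0.326), and the difference was -0.34 without WKO confined replicate 5, their lowest library. Cdc45, which joins the active helicase, had 203 and 264 in WT unconfined, 273 and 217 in WKO unconfined, 260, 272 and 271 in WT confined and 442, 260 and 277 in WKO confined libraries. One library, WKO confined replicate 1, set its high mean there. Gins2, of the same active helicase, ranged from 269.6 to 523.

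Among the genes of DNA synthesis, Pcna ranged from 7734 to 11193, with the lowest value in WKO confined replicate 5. Pola1, the catalytic subunit of the primase-bound polymerase, had 490.2 and 502 in WT unconfined, 563 and 576 in WKO unconfined, 647, 510.3 and 596 in WT confined and 503, 644 and 454 in WKO confined libraries. WKO lay above WT in unconfined cells (log2 fold change 0.20, 95% interval -0.20 to 0.60, limma adjusted p 0.810), while the confined genotypes overlapped. Tyms, which makes thymidylate, had 259 and 278 in WT unconfined, 256 and 247 in WKO unconfined, 185, 195 and 234 in WT confined and 265, 259 and 174 in WKO confined libraries. In WT its 3 confined values were below both unconfined ones (log2 fold change -0.40, 95% interval -0.85 to 0.06, limma adjusted p 0.484).

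Tk1, which salvages thymidine, varied more over the libraries than the other 39 genes, 2.75-fold from lowest to highest. It had 598 and 772 in WT unconfined, 797 and 882 in WKO unconfined, 515, 536 and 609.7 in WT confined and 1042, 685 and 379 in WKO confined libraries. Both extremes were WKO confined libraries, replicates 1 and 5, and confinement in WKO gave -0.37 (95% interval -1.05 to 0.30), or 0.012 without replicate 5. Rrm1 and Rrm2, the subunits of ribonucleotide reductase, ranged from 1899 to 2410 and from 1152 to 1647, and the 95% intervals of all their fold changes included 0.

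Uhrf1, which guides maintenance of DNA methylation onto newly copied DNA, showed the smallest p of the S phase genes after confinement in WT. It had 1336 and 1085 in WT unconfined, 1385 and 1240 in WKO unconfined, 1674, 1694 and 1807 in WT confined and 1560, 1588 and 1042 in WKO confined libraries. All 3 WT confined values were above the values of the other groups, and WKO confined replicate 5 was below both WKO unconfined ones. The log2 fold change on confinement was 0.52 in WT (95% interval 0.13 to 0.90, limma adjusted p 0.236) and 0.066 in WKO (95% interval -0.32 to 0.45). Between confined genotypes it was -0.33 (95% interval -0.67 to 0.01, adjusted p 0.320), and the interaction was -0.45 (95% interval -0.99 to 0.09, adjusted p 0.999). Without WKO confined replicate 5 the difference between confined genotypes was -0.13, the interaction -0.25 and the change in WKO 0.26. The change in WT passed in that fit (limma adjusted p 0.0284), where 3.19% of all genes did, with its size of 0.52 as before.

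The E-type cyclins activate Cdk2 at the start of S phase. Ccne1 had 237 and 247 in WT unconfined, 192 and 204 in WKO unconfined, 219, 223 and 298 in WT confined and 233, 178 and 140.2 in WKO confined libraries. WKO was below WT in unconfined cells (log2 fold change -0.28, 95% interval -0.82 to 0.26, limma adjusted p 0.800). In confined cells the genotypes overlapped (log2 fold change -0.44, 95% interval -0.88 to 0.0042, limma adjusted p 0.303), and the difference was -0.26 without WKO confined replicate 5. Ccne2 ranged from 187 to 411 and had wider intervals, up to 0.99 for confinement in WT.

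Of the mitotic cyclins and their partner, Ccna2 ranged from 1080 to 1559, Ccnb1 from 546 to 874, Ccnb2 from 315 to 564 and the kinase Cdk1 from 721 to 1108. Foxm1, a transcription factor of mitotic genes, ranged from 466 to 690.4. The largest of their fold changes was that of Ccnb2 between confined genotypes (0.34, 95% interval -0.09 to 0.77, limma adjusted p 0.43). Ccna2 had its 3 WT confined values below both WT unconfined ones, and Ccnb1 its 3 WKO confined values below both WKO unconfined ones.

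Bub1b encodes BubR1, a part of the spindle checkpoint that holds back the anaphase-promoting complex. It had 587 and 632 in WT unconfined, 849 and 862 in WKO unconfined, 542, 453 and 639.5 in WT confined and 707, 783 and 581 in WKO confined libraries. WKO was above WT in unconfined cells without overlap, by 0.49 on the log2 scale (95% interval 0.08 to 0.89, limma adjusted p 0.412). In confined cells the genotypes overlapped through WKO confined replicate 5 (0.34, 95% interval 0.02 to 0.67, limma adjusted p 0.275). Bub1, the related checkpoint kinase, varied less than the other 39 genes, from 428 to 520.1.

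Cdc20 activates the anaphase-promoting complex and so starts the separation of chromosomes. It had 376 and 500.0 in WT unconfined, 554 and 603 in WKO unconfined, 283, 352 and 420.2 in WT confined and 449, 389 and 237 in WKO confined libraries. In WKO all 3 confined values were below both unconfined ones, with a log2 fold change of -0.74 (95% interval -1.30 to -0.18, limma adjusted p 0.215), while in WT the groups overlapped (-0.32, 95% interval -0.88 to 0.24). The confinement effects of the genotypes differed by -0.42 (95% interval -1.22 to 0.38, limma adjusted p 0.999). Single libraries moved these values. Without WKO confined replicate 5, the lowest, the change in WKO was -0.47 (limma adjusted p 0.402) and the interaction -0.15. Without WKO confined replicate 1, the highest of its group, the change in WKO was -0.93 and passed (limma adjusted p 0.0476), in a fit where 8.37% of all genes did. The 8 mitotic genes whose WKO confined values were all below the unconfined ones were Ccnb1, Cdc20, Bub1b, Plk1, Aurka, Aurkb, Birc5 and Kif11. The nearest values of the 2 groups almost met for Ccnb1 (782.2 and 784.3), Plk1 (613.5 and 615.3), Birc5 (506.8 and 511.0) and Kif11 (947.5 and 953.0). Ube2c, the ubiquitin-conjugating enzyme of the same complex, ranged from 407 to 608 and was the one mitotic gene with a fold change below 0 between unconfined genotypes (-0.11).

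Plk1, a kinase of mitotic entry and exit, had 449 and 675 in WT unconfined, 681 and 615 in WKO unconfined, 391, 374 and 466 in WT confined and 614, 489 and 373 in WKO confined libraries. The WT groups overlapped and the WKO groups did not, yet the log2 fold change on confinement was -0.43 in each genotype (95% interval -0.91 to 0.06 in both; limma adjusted p 0.480 in WT and 0.41 in WKO). Without WKO confined replicate 5 the change in WKO was -0.24. The Aurora kinases Aurka and Aurkb, of the spindle poles and of the centromere, ranged from 286 to 469.7 and from 313 to 514. Birc5, or survivin, which brings Aurkb to the centromere, ranged from 313 to 562.

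Mki67, which encodes the proliferation antigen Ki-67 that coats mitotic chromosomes, was one of the few mitotic genes above 0 after confinement in both genotypes. It had 2718 and 2810 in WT unconfined, 3443 and 3417 in WKO unconfined, 3113, 3258 and 3581 in WT confined and 3404, 4722 and 5750 in WKO confined libraries. WKO confined replicate 5, the lowest library for 12 S phase genes, held its highest value. The log2 fold change between genotypes was 0.31 in unconfined cells (95% interval -0.10 to 0.73, limma adjusted p 0.675) and 0.45 in confined cells (95% interval 0.11 to 0.79, adjusted p 0.163). Confinement gave 0.26 in WT (95% interval -0.12 to 0.64, adjusted p 0.598) and 0.40 in WKO (95% interval 0.02 to 0.78, adjusted p 0.332). WKO confined replicate 1 overlapped with the WT confined and WKO unconfined libraries, and without it both WKO confined values passed (0.65, limma adjusted p 0.0103, between genotypes and 0.60, adjusted p 0.0116, for confinement), in fits where 5.63% and 8.37% of all genes did. Without replicate 5 they were 0.28 (limma adjusted p 0.325) and 0.23 (adjusted p 0.614).

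Of the motor proteins, Cenpe, which moves chromosomes to the spindle equator, had 629 and 606 in WT unconfined, 714 and 766 in WKO unconfined, 582, 576 and 742 in WT confined and 719, 1025 and 748 in WKO confined libraries. Its confined genotypes overlapped (log2 fold change 0.38, 95% interval 0.05 to 0.72, limma adjusted p 0.236). Kif11, which pushes the spindle poles apart, had 736 and 921 in WT unconfined, 953 and 974 in WKO unconfined, 621, 659 and 778 in WT confined and 659, 948 and 699.7 in WKO confined libraries. Its 3 WKO confined values were below both WKO unconfined ones (-0.34, 95% interval -0.72 to 0.04, limma adjusted p 0.400), and its WT groups overlapped (-0.27).

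Prc1, which bundles the microtubules of the central spindle, had 823 and 1073 in WT unconfined, 1069 and 860 in WKO unconfined, 649, 809 and 996 in WT confined and 853, 1094 and 865 in WKO confined libraries. Its groups overlapped throughout, and its interaction was 0.18 (95% interval -0.43 to 0.79). Among the remaining genes Top2a, the topoisomerase that disentangles sister chromatids, ranged from 2483 to 3700.5, the spindle assembly factor Tpx2 from 802 to 1138, Nusap1, which binds spindle microtubules, from 363 to 598 and Cenpf from 377 to 770. Cenpf had both extremes in WKO confined cells, replicates 1 and 2.

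Genes of the same machinery outside the 40 were taken from 3 further lists. Of 35 other replication genes, all tested, 0 passed in limma in any comparison. At an unadjusted limma p under 0.05, 3 were higher and 3 lower after confinement in WT (12.2% of all genes). After confinement in WKO 3 were higher and 1 lower (14.1% of all). Between genotypes 0 were higher and 1 lower in unconfined cells (9.60% of all), and likewise in confined cells (16.8% of all). In the interaction 1 was higher and 1 lower (2.07% of all). Of 35 other mitotic genes, 34 were tested (Hjurp was not matched) and 0 passed in limma. Their log2 fold changes were above 0 for 30 of 34 between unconfined genotypes (median 0.22) and 28 of 34 between confined genotypes (median 0.19), and below 0 for 25 of 34 after confinement in WT (median -0.13) and 29 of 34 in WKO (median -0.17). They lay on the same sides of 0 as the 21 mitotic genes in the same libraries. The other replication genes had 18, 13, 20 and 13 of 35 above 0 in these 4 comparisons, in that order.

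Of the genes of smallest p in those lists, none passed in limma. With DESeq2 Orc2 and Cenpa passed, as did Exo1, which is described further below. Orc2, a subunit of the origin recognition complex, had 465 and 415 in WT unconfined, 302 and 349 in WKO unconfined, 431, 448 and 518 in WT confined and 485, 457 and 474 in WKO confined libraries. WKO was below WT in unconfined cells (log2 fold change -0.43, limma adjusted p 0.389), while the 3 WKO confined values were above both WKO unconfined ones (0.54, limma adjusted p 0.1001, DESeq2 adjusted p 0.0439). The counts of Orc2 are uncertain, because exons of Nif3l1, on the opposite strand, overlap 29.8% of its exon length. Cenpa, the histone H3 variant of centromeres, had a log2 fold change of 0.94 between unconfined genotypes (limma adjusted p 0.268, DESeq2 adjusted p 0.0222), which rested on 3201 in WKO unconfined replicate 3 against 1442 in replicate 1. Without the latter it was 1.51 (limma adjusted p 0.0408). Cks2, a small subunit of Cdk complexes, had 103, 144 and 159 in WT confined and 179, 229 and 225 in WKO confined libraries, without overlap (0.65, limma adjusted p 0.162).

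Among 31 cell cycle regulators, all tested, 3 genes passed. In WKO confined against WT confined cells 2 fell, Ccnd1 and Cdkn1c, and 0 rose, where 2.59% of all genes passed. After confinement Btg2 rose in WT and in WKO and 0 fell, where 1.16% and 1.72% of all genes passed. In unconfined cells 0 of the 31 passed between genotypes in limma (0.145% of all genes), with 6 at an unadjusted p under 0.05 (9.60% of all), and in the interaction 0 passed, with 1 at an unadjusted p under 0.05 (2.07% of all).

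Ccnd1, or cyclin D1, which links growth factor signals to Cdk4 and Cdk6, had 9081 and 6579 in WT unconfined, 5888 and 4287 in WKO unconfined, 9629, 9512 and 11118 in WT confined and 5564, 6186 and 4578 in WKO confined libraries. All 5 WKO values were below all 5 WT values, a split whose share over all genes was not counted. Exons of LTO1, on the opposite strand, overlap 23.4% of the exon length of Ccnd1, so its counts are uncertain too. The log2 fold change was -0.90 in confined cells (95% interval -1.25 to -0.55, limma adjusted p 0.0159) and -0.62 in unconfined cells (95% interval -1.05 to -0.19, adjusted p 0.288). The call in confined cells was lost without any one of the WT confined libraries (limma adjusted p 0.0559, 0.0592 and 0.0642 without replicates 2, 3 and 6) and without the mean-variance trend (0.0829).

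Cdkn1c, or p57, an inhibitor of cyclin-dependent kinases, had 159 and 182 in WT unconfined, 73.0 and 37.2 in WKO unconfined, 167, 218 and 184 in WT confined and 74.5, 28.4 and 55.1 in WKO confined libraries. Again all 5 WKO values were below all 5 WT values, with the share over all genes not counted. Its counts are uncertain as well, because exons of Gm44732, on the opposite strand, overlap 30.7% of its exon length. The log2 fold change was -1.92 in confined cells (95% interval -2.68 to -1.17, limma adjusted p 0.0160) and -1.69 in unconfined cells (95% interval -2.61 to -0.76, limma adjusted p 0.161), where DESeq2 called it (-1.63, adjusted p 0.0127). Without WT confined replicates 2, 3 or 6 the limma adjusted p was 0.0557, 0.0799 and 0.0528, and without the trend 0.0659.

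Btg2, an antiproliferative gene that promotes mRNA decay and responds early to many stimuli, had 313 and 330.1 in WT unconfined, 413 and 632 in WKO unconfined, 1066, 1303 and 1813 in WT confined and 1592, 1135 and 2884 in WKO confined libraries. All 6 confined values were above all 4 unconfined values, a split whose share over all genes was not counted. The log2 fold change was 2.08 in WT (95% interval 1.35 to 2.81, limma adjusted p 0.0107) and 1.76 in WKO (95% interval 1.03 to 2.49, adjusted p 0.0228). The call was lost without either unconfined replicate of the genotype (limma adjusted p 0.122 and 0.0992 without WT replicates 1 and 3, and 0.292 and 0.0688 without WKO replicates 1 and 3), without the trend (0.0993 and 0.129), and in WKO with only the groups compared (0.145). Btg1, its relative, and Cdkn1a, or p21, named after their values were seen, also had all 6 confined values above the 4 unconfined ones, with log2 fold changes of 0.80 and 0.60 in WT and 1.07 and 0.87 in WKO, and neither passed in either genotype.

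**Figure D4:**
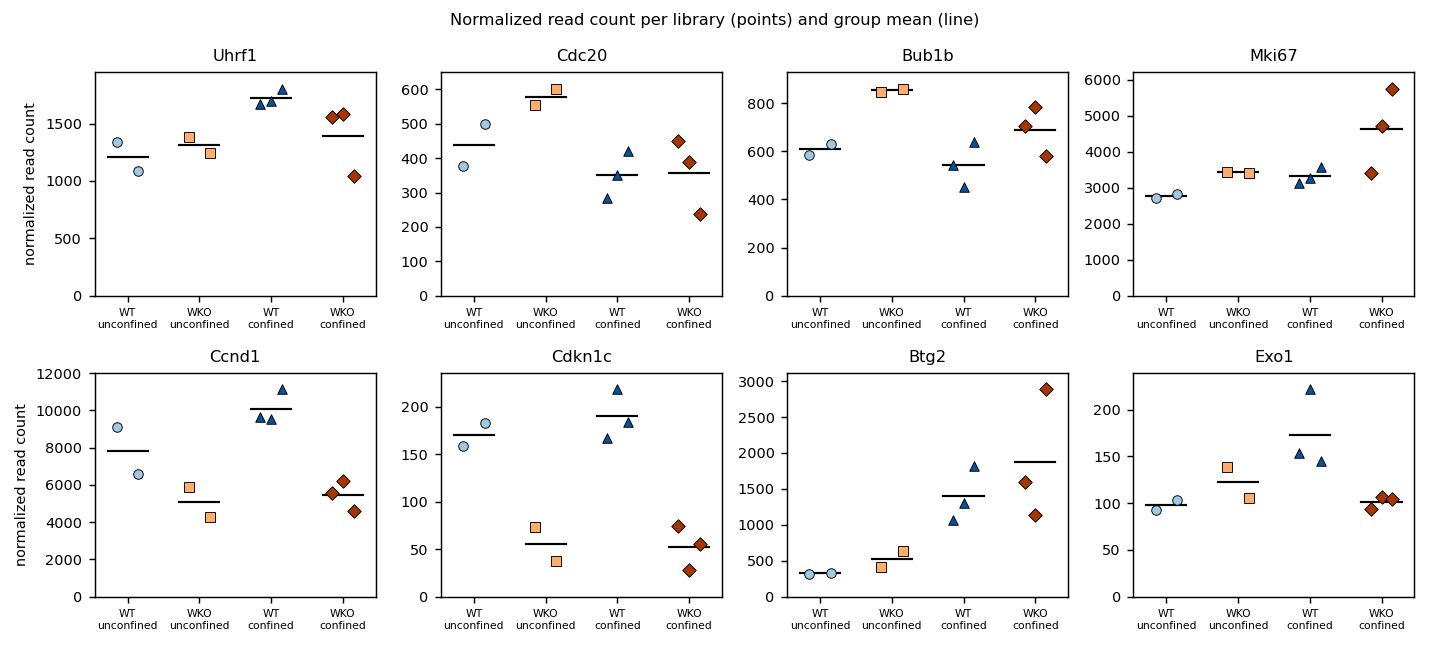
Points give the normalized read count of each library and lines the group mean, on axes that start at 0, for 4 of the 40 genes (top row) and for 4 genes of the other lists (bottom row). Ccnd1 and Cdkn1c separate the genotypes and Btg2 separates confined from unconfined libraries, while the groups overlap in part for the genes of the top row.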

How the data were processed

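The deposited file is a single table in which the authors give, for each gene and library, a signal: read counts they normalized. Reads had passed FastQC, Trim Galore and STAR on GRCm38 (mm10), per the submitters' processing notes. The counting tool, annotation and use of strand are not given in the sources used here. Whole reads divided by 1 size factor per library account for 100% of the deposited values (tolerance 1e-06). The factors equal those that DESeq2 computes from the recovered reads, to within 2.22e-16. A single factor per library does not remove differences in the mix of cells. Replicates differed beyond sampling noise (chi-square per degree of freedom from 7.56 to 78.3 over 8 pairs), and none was left out.

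log2(normalized read count + 1), which understates changes of low genes, was fitted with limma 3.58.1 (R 4.3.3): 1 mean per group, 10 libraries, a mean-variance trend, genes with a mean of at least 10, and Benjamini-Hochberg adjustment. The 4 groups share 1 estimate of spread because 2 or 3 libraries say little alone. Alternatives were pseudocounts of 0.5 and 5, no filter, TMM and upper-quartile scaling, edgeR 4.0.16, DESeq2 1.42.0, only the groups compared, no trend, array weights, a replicate block and each library left out. The procedure was tested on simulated data.

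Names, exons and shared transcripts came from GENCODE M21 with blastn 2.17.0 (95% identity, stretches of 100 bases). The genes, lists and markers were chosen with earlier results of these data known. Values are given for the 3 S phase and 3 mitotic genes of smallest p in each comparison and, of other lists, for up to 3 genes that passed or the 1 of smallest p. Counting error is small at these depths, and 3 reads correspond to a normalized read count of 2.35 to 3.59.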

Additional observations from a re-analysis of the deposited data

Results flagged for a closer look

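Exo1, an exonuclease of replication and mismatch repair, had genotype differences of opposite sign in the 2 conditions, without overlap in either. It had 92.1 and 104 in WT unconfined, 139 and 105 in WKO unconfined, 153, 222 and 145 in WT confined and 94.1, 106 and 104 in WKO confined libraries. The difference itself was tested: the WKO confinement effect less the WT one was -1.05 on the log2 scale (95% interval -1.79 to -0.30, limma adjusted p 0.999), and did not pass. Within conditions, the WKO to WT log2 ratio was -0.74 in confined cells (limma adjusted p 0.0979), which passed with DESeq2 (-0.77, adjusted p 0.0460) and with array weights (adjusted p 0.0174), and confinement in WT gave 0.79 (adjusted p 0.178).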

How the results depend on the processing

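Over the alternatives, 6 counts of the 40 rose. Of 208 medians, 17 changed sign, in 5 of 10 results: S phase genes between unconfined genotypes (edgeR 0.021, DESeq2 0.019, upper-quartile scaling 0.014), between confined genotypes (array weights 0.011), for confinement in WKO (array weights 0.097) and in the interaction, and mitotic genes in the interaction (array weights 0.092), besides the replicate block below and left-out libraries. With 1 library left out these 5 medians ran from -0.095 to 0.14, -0.19 to -0.020, -0.073 to 0.082, -0.19 to 0.024 and -0.20 to 0.094, in that order. Of 957 values of named genes, 21 gained a call, 15 lost one and 7 changed sign with no call on either side: Cdt1 between unconfined genotypes (-0.53 to 0.017 with 1 library left out, the latter without WKO unconfined replicate 1), Tk1 for confinement in WKO (-0.72 to 0.012, without WKO confined replicates 1 and 5) and, in the interaction, Bub1b (0.060 with array weights) and Prc1 (-0.013 to 0.37, without WT unconfined replicates 3 and 1), with the other 3 under the block. With only the groups compared, 1 of the 40 passed for confinement in WT (Uhrf1, limma adjusted p 0.0427; 3.65% of all genes passed). With array weights, which give libraries unequal weight, 8 passed between confined genotypes, 7 higher (Ccna2, Bub1b, Top2a, Mki67, Kif11, Cenpe and Cenpf) and 1 lower (Mcm2), and 2 for confinement in WKO (Mki67 higher and Cdc20 lower), where 15.6% and 13.9% of all genes passed. Outside the 40, array weights also called Exo1 and Cks2 between confined genotypes and Orc2 and Cks2 for confinement in WKO (limma adjusted p 0.0174, 0.0171, 0.0145 and 0.0196). Leaving out 1 library gave 0 to 1 of the 40 between confined genotypes, 0 to 2 for confinement in WKO and 0 to 1 for confinement in WT. The causes were not tested. Over the settings, the genes passing ran from 4 to 245 between unconfined genotypes (18 in the reported fit), 53 to 1948 between confined genotypes (322), 20 to 455 for confinement in WT (144) and 33 to 1735 in WKO (214), and 0 in the interaction in each setting.

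Replicate numbers gave no sign of pairing the libraries. The 7 pairs with the same number had correlations of deviations from -0.11 to 0.076, below the required 0.1. Of 8 libraries with a partner, 0 correlated best with their own number. Unconfined groups hold 2 libraries each, whose deviations mirror each other, so these correlations cannot show that pairing is absent. The block took the genes passing between unconfined genotypes from 18 to 245. With a replicate block 0 of the 40 passed in each comparison, while 245, 294, 216 and 222 genes passed in the 4 comparisons; the median was 0.45 for mitotic genes between confined genotypes, and in the interaction 0.13 for S phase and 0.27 for mitotic genes; S phase medians were 0.0011 between confined genotypes and 0.13 for confinement in WKO. Under the block Tk1 for confinement in WKO was 0.20, the interaction of Cdc20 was 0.11 and that of Bub1b 0.11, and between unconfined genotypes Cdkn1c and Cenpa passed (limma adjusted p 0.0199 and 0.0161).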

Other observations

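Cdkn2a, which encodes the inhibitor p16 and the protein Arf, had 30.4 and 20.2 in WT unconfined, 53.3 and 49.6 in WKO unconfined, 35.4, 55.1 and 53.8 in WT confined and 52.6, 28.4 and 21.6 in WKO confined libraries, with an interaction of -1.57 (limma adjusted p 0.999). Rpa3, a subunit of the single-strand binding protein, and Prim2, a primase subunit, named after their values were seen, had all 6 confined values below all 4 unconfined ones: 37.5 to 66.3 against 76.8 to 105 for Rpa3, and 244 to 302 against 316 to 364 for Prim2. Chaf1b, a histone chaperone of replication, had the opposite order, 362 to 451 against 269 to 333. Cdc25b, a phosphatase of mitotic entry, had 474, 503 and 544 in WT confined against 547 and 703 in WT unconfined libraries (log2 fold change -0.29, limma adjusted p 0.475).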
